A study of Mus musculus with 9 samples.

Results

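The 10 genes Ttr, Kl, Slc4a5, Otx2, Foxj1, Folr1, Kcnj13, Clic6, Aqp1 and Enpp2 mark the choroid plexus and the ependyma of the mouse brain. They were chosen by name, and a gene counted as measured where an array probe set was annotated to it alone. This held for 9 of the 10, out of 18194 genes measured in all. Enpp2, which encodes the enzyme autotaxin, was not analysed here. Each gene was read from its brightest probe set over the 9 arrays, and further probe sets served as a check. The 9 samples were adult microvascular fragments, embryonic microvascular fragments and embryonic rest of brain, with 3 arrays in each group. Microvascular fragments are short pieces of small vessels taken out of brain tissue. The adult fragments came from mice aged 1 year on a mixed C57/SV129 background, 1 female (replicate 2) and 2 males. The embryonic fragments came from NMRI embryos at embryonic day 18.5, whose sex is not given. Rest of brain is the tissue of NMRI embryos of the same day without the fragments, and no adult rest of brain was analysed here. No group carried a transgene or a treatment in the labels, and the sources used here do not say how the fragments were isolated or whether animals were pooled. Replicate 3 of rest of brain was kept in its group by title and age label, although its free-text note names a different day.

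The choroid plexus is a fold of tissue in the brain ventricles that makes cerebrospinal fluid. Its epithelium covers a core of leaky, fenestrated vessels, secretes transport proteins into the fluid and moves ions, water, folate and hormones across tight junctions that hold claudins other than those of brain endothelium. The ependyma lines the ventricles and drives the fluid with motile cilia. Neither belongs to the wall of a brain capillary.

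Values are log2 intensities made with GCRMA, a background correction and normalization for short oligonucleotide arrays, and values under 4 are treated as background. Differences are log2 differences of group means from 1 limma fit over all 9 arrays, and a gene is called at an adjusted p under 0.05. Every mean ± SD is over n = 3 arrays, and every difference is given ± SE. The labels describe the arrays of a group as biological replicates, and the number of arrays limits the precision. A gene was tested where 3 or more arrays reached 4, which all 9 measured genes did, but Kl and Slc4a5 passed through the adult fragments alone and Foxj1 through rest of brain alone. The fragments bore the marks of endothelium, with 9 of 9 measured endothelial markers at 4 or above on every fragment array. The mean log2 value of these markers was 13.4 to 13.5 on adult fragment arrays, 13.2 to 13.4 on embryonic fragment arrays and 6.09 to 6.37 on rest of brain arrays. Embryonic fragments replicate 1 stood apart from its group, with lower values for most choroid plexus genes, and several results that rest on it are also given without it. Age, strain and extraction kit differed together between adult and embryonic samples and cannot be told apart. As the sex of the embryos is not given, a part of sex cannot be told apart from these either.

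Choroid plexus transcripts were high in adult vessel fragments, lower in embryonic fragments, and for Ttr, Kcnj13, Clic6, Aqp1 and Folr1 at means between these in embryonic rest of brain. Adult fragments exceeded embryonic fragments in 8 of the 9 genes, by 3.25-fold for Aqp1, 22.6-fold for Kcnj13 and at least 38.2-fold for Kl. Of all 12009 genes tested, 57.1% were called in this comparison, 27.4% higher and 29.7% lower. Kl and Slc4a5 had to differ once they passed the filter. Among the 6 genes at 4 or above on every array of both fragment groups, 6 were higher. Less RNA of a gene per cell and fewer cells that make it cannot be told apart in such samples.

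**Figure D1:**
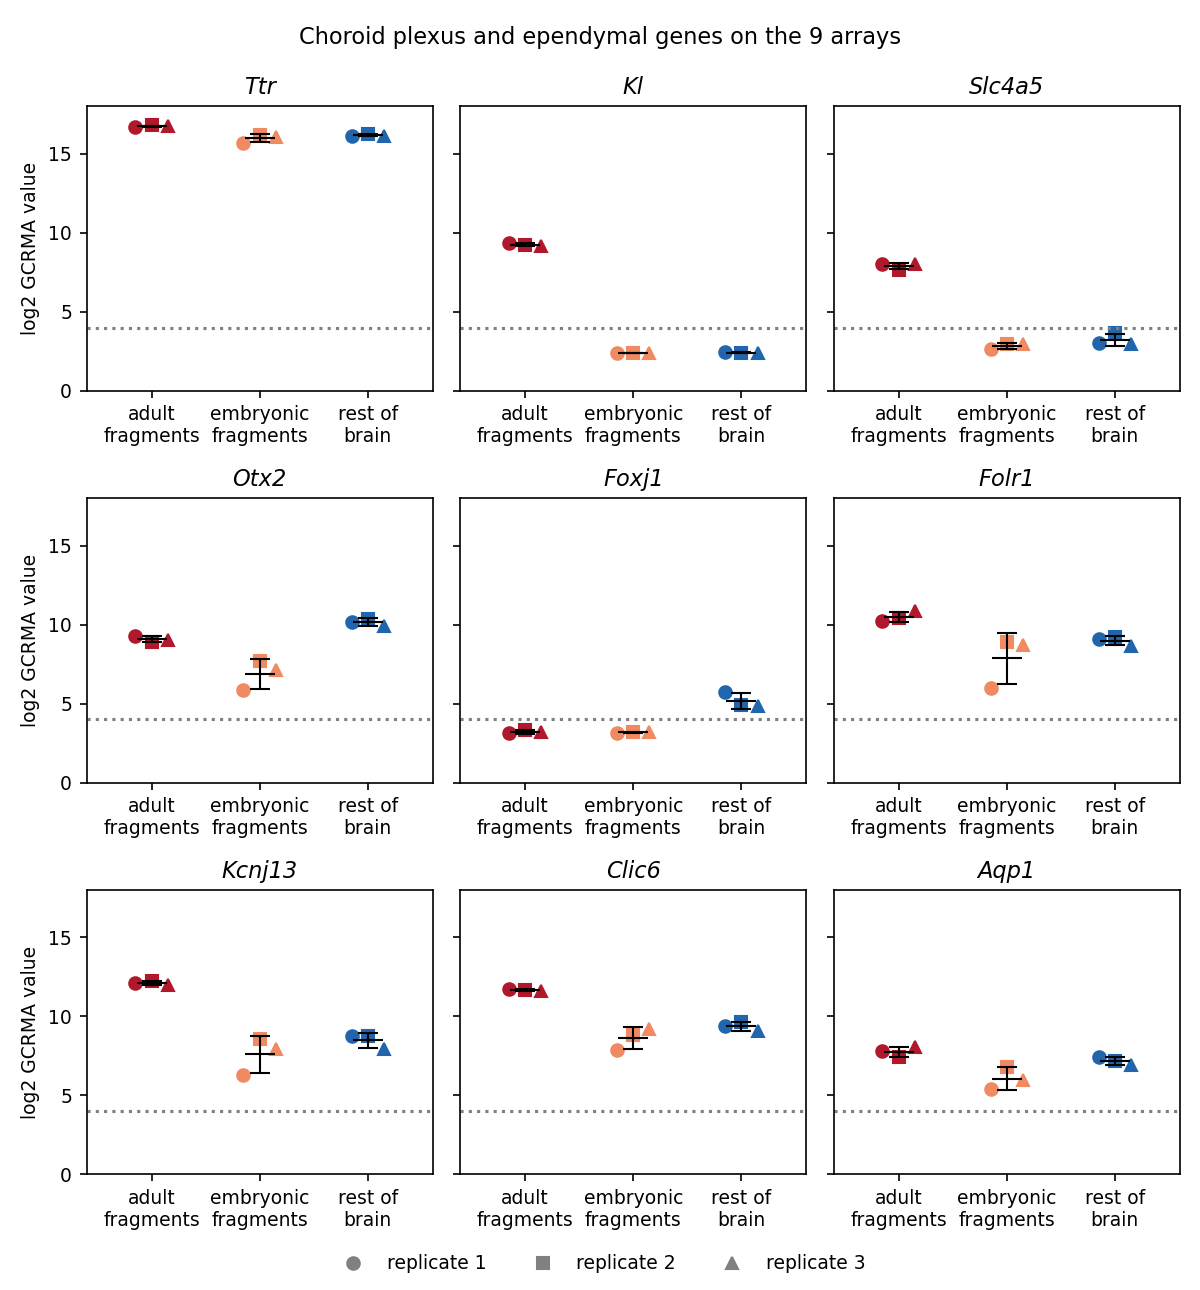
Log2 GCRMA value (vertical axis) of the 9 measured genes on every array of adult fragments, embryonic fragments and rest of brain. Symbols mark the replicate number, black bars the mean ± SD of 3 arrays, and the dotted line the background value of 4. In 8 panels the adult fragments lie above the embryonic fragments on every array, and embryonic fragments replicate 1 is the lowest of its group for the 6 genes above background there. Kl and Slc4a5 passed the filter through adult fragments alone, which fixed their separation. The share of all genes without overlap is not given here.

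Ttr encodes transthyretin, the carrier of thyroxine that choroid plexus epithelium secretes into cerebrospinal fluid. It read 16.72, 16.79 and 16.74 in adult fragments, 15.69, 16.20 and 16.07 in embryonic fragments, and 16.14, 16.23 and 16.15 in rest of brain. Adult fragments lay above both embryonic groups without overlap, whereas embryonic fragments and rest of brain overlapped. The Ttr probe set ranked 1 of 45101 on all 3 adult arrays, so its value there is the maximum of the array. It ranked 33, 5 and 8 on the embryonic fragment arrays and 6, 4 and 6 on the rest of brain arrays. Ttr was higher in adult than in embryonic fragments by 0.76 ± 0.14 (limma adjusted p = 0.00141). A difference at the top of the scale can be understated, so the size of this one cannot be ranked against those of other genes. The other 3 Ttr probe sets gave the same direction and call. The dimmest of them read 15.57 to 15.82 in adult fragments and 13.81 to 15.19 in embryonic fragments, and gave 1.09 ± 0.32 (adjusted p = 0.0170). All 4 probe sets carry identifiers that mark probes shared between transcripts. Embryonic fragments and rest of brain were not called apart, with a difference of -0.19 and a 95% interval of -0.50 to 0.13.

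Genes of membrane transport in the epithelium were measured below the top of the scale. Kcnj13, the potassium channel Kir7.1, read 12.12, 12.25 and 11.96 in adult fragments, 6.31, 8.59 and 7.93 in embryonic fragments, and 8.76, 8.76 and 7.94 in rest of brain. The 3 adult arrays lay close together and far above the others, while the embryonic fragment arrays were spread widely and overlapped with rest of brain. Kcnj13 was higher in adult fragments than in embryonic fragments by 4.50 ± 0.51 (adjusted p = 0.000106) and than in rest of brain by 3.63 ± 0.51 (adjusted p = 0.000184). Clic6, a chloride intracellular channel protein of secretory epithelia, read 11.73, 11.67 and 11.58 in adult fragments, 7.86, 8.79 and 9.20 in embryonic fragments, and 9.39, 9.66 and 9.10 in rest of brain. The adult arrays again lay above all others, and embryonic fragments overlapped with rest of brain. Its adult values stood 3.04 ± 0.31 above embryonic fragments (adjusted p = 5.35e-05) and 2.28 ± 0.31 above rest of brain (adjusted p = 0.000138). The other Clic6 probe set gave 3.17 ± 0.24 and 1.96 ± 0.24 for these differences.

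Slc4a5 encodes the sodium bicarbonate cotransporter NBCe2 of the ventricular face of the epithelium. It read 8.0, 7.67 and 8.03 in adult fragments, 2.65, 2.96 and 2.95 in embryonic fragments, and 3.03, 3.66 and 2.96 in rest of brain. Every embryonic array lay under the background value, so adult fragments were at least 14.9-fold higher than either embryonic group. Aqp1, the water channel aquaporin 1, which red cells and vessels outside the brain also make, read 7.84, 7.43 and 8.04 in adult fragments, 5.42, 6.83 and 5.95 in embryonic fragments, and 7.46, 7.18 and 6.91 in rest of brain. Adult fragments were higher than embryonic fragments by 1.70 ± 0.34 (adjusted p = 0.00253) and overlapped with rest of brain, at a difference of 0.58 ± 0.34 (adjusted p = 0.146). That difference from rest of brain passed without embryonic fragments replicate 2 (adjusted p = 0.0479), with these groups fitted alone (adjusted p = 0.0432) and after cyclic loess over the tested genes (adjusted p = 0.0233). Of 3 tested red cell genes, 1 was higher and 2 were lower in adult than in embryonic fragments, beside 27.4% and 29.7% of all tested genes. The summed level of the 5 measured ones ran from 10.75 to 11.07 in adult and from 9.39 to 10.61 in embryonic fragments (log2 of the sum). Hbb-y, a globin that read 10.72 to 11.04 in adult fragments, 7.68 to 8.49 in embryonic fragments and 2.95 to 3.14 in rest of brain, made up nearly all of the adult sum. The other tested genes went the other way, with Slc4a1, the anion exchanger of red cells, at -2.70 and Alas2 at -5.69. Alas2, the first enzyme of heme synthesis in red cells, read 3.03 to 3.29 in adult and at least 8.17 in embryonic fragments, while Hba-a1 and Epb42 lay under 4 on every array. In rest of brain, where Hbb-y was at background, Alas2 read 8.97 to 11.02 and Slc4a1 6.97 to 8.02. Hbb-y thus did not follow these genes, and the higher adult sum cannot be read as more red cell RNA. The part of red cells in the Aqp1 result was not tested.

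The receptor genes were also highest in adult fragments. Folr1, the folate receptor that carries folate through the epithelium, read 10.23, 10.40 and 10.84 in adult fragments, 6.01, 8.89 and 8.71 in embryonic fragments, and 9.10, 9.22 and 8.64 in rest of brain. The adult arrays were the highest, and 1 embryonic fragment array stood far below the other arrays. It was 6.16-fold higher in adult than in embryonic fragments (2.62 ± 0.67, adjusted p = 0.00924). Against rest of brain the adult arrays did not overlap, but the difference of 1.5 ± 0.67 missed the threshold (adjusted p = 0.0682). It passed without embryonic fragments replicate 1 (adjusted p = 0.000276), with these groups fitted alone (adjusted p = 0.000835) and after cyclic loess of the arrays (adjusted p = 0.0489). Kl encodes klotho, a membrane protein that lets FGF receptors bind FGF23 and is also shed into the fluid. It read 9.35, 9.25 and 9.17 in adult fragments, 2.4, 2.39 and 2.4 in embryonic fragments, and 2.44, 2.42 and 2.42 in rest of brain. Kl was thus well above background on the 3 adult arrays and at background on the 6 embryonic ones, at least 38.2-fold higher. The other Kl probe set stayed between 2.05 and 2.08 on all 9 arrays, so the signal rests on 1 of 2 probe sets.

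Both transcription factors of the set departed from this order. Otx2, a homeodomain factor needed for the choroid plexus to form and also present in parts of the embryonic brain, read 9.28, 8.91 and 9.05 in adult fragments, 5.87, 7.72 and 7.11 in embryonic fragments, and 10.19, 10.38 and 9.92 in rest of brain. It was highest in rest of brain and lowest in embryonic fragments, with no overlap between any 2 groups. Adult fragments exceeded embryonic fragments by 2.18 ± 0.40 (adjusted p = 0.00171). The deficit of adult fragments against rest of brain was -1.08 ± 0.40 (adjusted p = 0.0355). This call was lost when any 1 of the 6 arrays compared was left out (adjusted p = 0.0535 to 0.103), under either cyclic loess (adjusted p = 0.0600 and 0.0673) and with no filter on dim probe sets (adjusted p = 0.0816). Foxj1, which turns on the genes of motile cilia and is the set's only ependymal marker, read 3.13, 3.34 and 3.18 in adult fragments, 3.14, 3.21 and 3.21 in embryonic fragments, and 5.73, 4.94 and 4.84 in rest of brain. Both kinds of fragments lay at background and thus at least 2.25-fold lower than rest of brain. Foxj1 was tested only because rest of brain reached 4, so its lower calls followed from the filter. Cyclic loess over the tested genes ended both Foxj1 calls, with -0.44 for adult (adjusted p = 0.0995) and -0.33 for embryonic fragments (adjusted p = 0.216).

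The annotated starts of 5 of the 10 genes were found among the promoter sequences of RefSeq on GRCm38.p6, which span 250 bases before and 50 bases after a start. The promoters of Kl and Slc4a5, the pair at background in every embryonic array, are shown with that of Kcnj13, the most changed gene that was measured in all groups, and with the only member promoter that held a searched motif, from 1 of 4 Otx2 starts. The sequences run 5′ to 3′ on the strand of the gene. A single capital marks the first transcribed base, and 6 capitals in a row mark the motif.
Kl (chr5:150952357-150952656, plus strand): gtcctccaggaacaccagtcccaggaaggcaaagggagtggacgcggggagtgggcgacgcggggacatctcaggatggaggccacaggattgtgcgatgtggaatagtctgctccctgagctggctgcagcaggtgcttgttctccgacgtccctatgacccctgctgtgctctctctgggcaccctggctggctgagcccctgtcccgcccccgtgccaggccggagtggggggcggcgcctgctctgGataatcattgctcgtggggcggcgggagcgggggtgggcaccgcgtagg
Slc4a5 (chr6:83237125-83237424, plus strand): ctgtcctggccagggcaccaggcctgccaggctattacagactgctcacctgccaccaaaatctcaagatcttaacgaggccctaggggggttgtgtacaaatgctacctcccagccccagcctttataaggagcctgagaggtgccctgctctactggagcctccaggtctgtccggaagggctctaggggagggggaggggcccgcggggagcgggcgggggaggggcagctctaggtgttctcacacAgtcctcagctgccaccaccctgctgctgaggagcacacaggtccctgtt
Kcnj13 (chr1:87394680-87394979, minus strand): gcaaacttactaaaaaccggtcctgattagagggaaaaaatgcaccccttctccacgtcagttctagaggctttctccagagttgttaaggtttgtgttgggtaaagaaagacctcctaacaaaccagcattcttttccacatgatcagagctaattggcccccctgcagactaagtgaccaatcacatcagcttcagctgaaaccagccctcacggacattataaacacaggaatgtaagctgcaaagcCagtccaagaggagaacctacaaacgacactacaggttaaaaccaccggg
Otx2 (chr14:48665060-48665359, minus strand): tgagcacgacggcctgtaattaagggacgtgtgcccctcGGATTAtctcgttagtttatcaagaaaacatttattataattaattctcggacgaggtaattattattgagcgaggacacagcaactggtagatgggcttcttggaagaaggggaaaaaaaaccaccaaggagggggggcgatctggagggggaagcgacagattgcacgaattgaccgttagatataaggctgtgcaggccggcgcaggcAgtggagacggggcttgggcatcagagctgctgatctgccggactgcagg
The search, on both strands, was for TAATCC, the type of site that Otx homeodomains bind, and for GTAAACA, a site of forkhead factors such as Foxj1. Neither motif contains the other. TAATCC stood in 1 of the 8 promoters, as GGATTA on the other strand at base -211 from the Otx2 start, and GTAAACA in 0 of 8. Over all 32851 promoters of the table, 7.06% held TAATCC and 3.65% held GTAAACA. Kl had a GC content of 67.3% with 19 CpG dinucleotides, Slc4a5 62.7% with 6, and Kcnj13 46.0% with 5, beside medians of 52.7% and 7 over all promoters. Kl and Slc4a5, which shared their pattern over the groups, thus differed in CpG content.

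Embryonic fragments and rest of brain came from the same age and strain, and here most choroid plexus genes missed the threshold. Of the 9 genes, 0 were higher and 3 were lower in embryonic fragments (Otx2, Foxj1 and Aqp1) by limma, beside 66.1% of all tested genes called, 37.2% lower and 28.9% higher. Foxj1 left aside, 2 of the 6 genes at 4 or above on every array of both groups were lower. At an unadjusted limma p under 0.05, 4 of all 9 genes were lower (Otx2, Foxj1, Aqp1 and Clic6) and 0 higher. The share of all tested genes at that unadjusted threshold is not given here, so this count has no background to be set against. The lower value of Foxj1 again followed from the filter. Otx2 differed most, at -3.26 ± 0.40, or 9.58-fold lower in embryonic fragments (adjusted p = 9.50e-05). Aqp1 was lower by 2.17-fold (-1.12 ± 0.34, adjusted p = 0.0170). The Aqp1 call was lost without embryonic fragments replicate 1 (adjusted p = 0.0507) or 3 (adjusted p = 0.0505), without rest of brain replicate 1 (adjusted p = 0.0631) and after cyclic loess over the tested genes (adjusted p = 0.0582). Clic6 missed the threshold at -0.76 ± 0.31 (adjusted p = 0.0556) but passed on its other probe set at -1.20 ± 0.24 (adjusted p = 0.00200), without embryonic fragments replicate 3 (-1.05, adjusted p = 0.0120), with array weights (adjusted p = 0.0417) and after cyclic loess over the tested genes (adjusted p = 0.0486). Kcnj13 and Folr1 had differences of -0.87 (95% interval -2.04 to 0.30) and -1.12 (-2.65 to 0.41). Kcnj13 passed without embryonic fragments replicate 2 (-1.36, adjusted p = 0.0337). Kl and Slc4a5 lay at background in both groups, which gives no fold.

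Between adult fragments and rest of brain, 7 of the 9 genes were called, 5 higher (Ttr, Kl, Slc4a5, Kcnj13 and Clic6) and 2 lower (Otx2 and Foxj1), beside 76.0% of all tested genes called, 33.1% higher and 42.9% lower. Kl, Slc4a5 and Foxj1 had to differ here once they passed the filter through 1 group. Of the 6 genes at 4 or above on every array of both groups, 3 were higher, 1 was lower and 2 were not called. Ttr stood 0.58 ± 0.14 above rest of brain (adjusted p = 0.00407), again read at the top of the scale, while Kcnj13 was 12.4-fold and Clic6 4.85-fold higher. With these groups fitted alone all 9 were called, 7 of them higher, beside 3923 higher and 5032 lower of all 12009 tested genes. The comparisons share their groups, so their counts are not independent of each other.

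**Figure D2:**
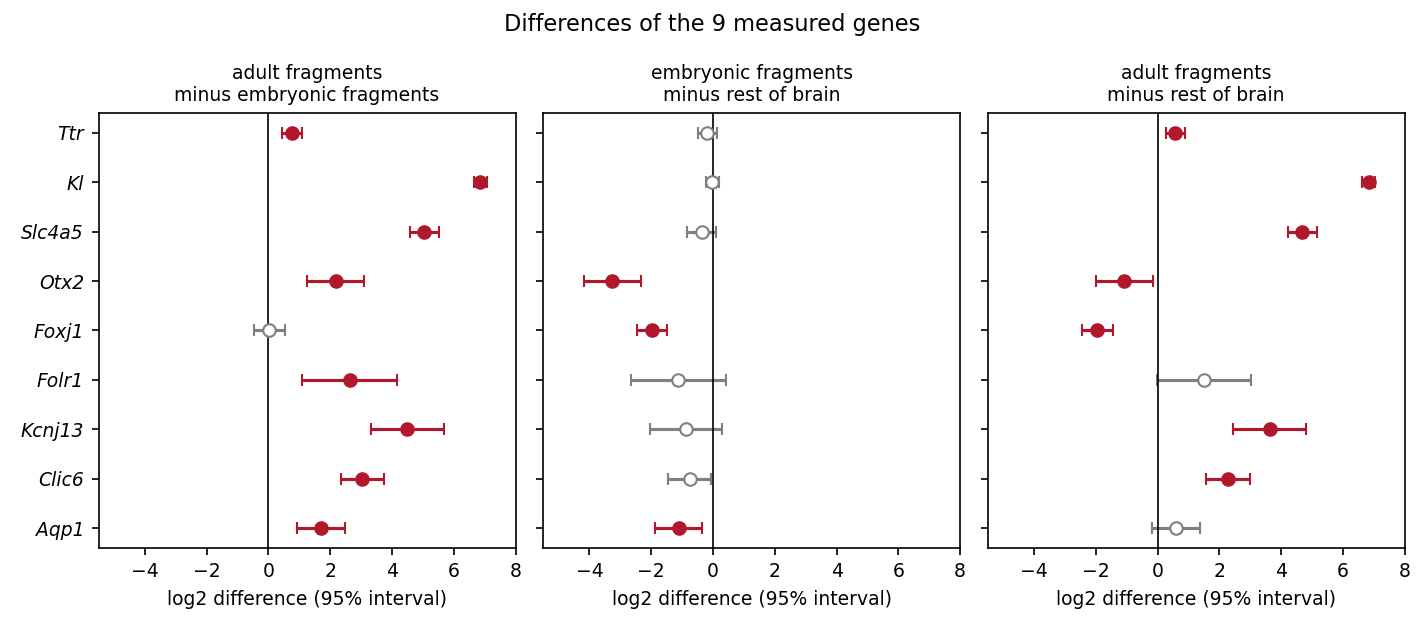
Log2 difference (horizontal axis) of the 9 measured genes in each comparison, with the 95% interval of the limma fit. Filled points are called at an adjusted p under 0.05 and open points are not. 8 genes are called right of 0 between adult and embryonic fragments, 3 are called left of 0 between embryonic fragments and rest of brain, and Otx2 and Foxj1 alone are called left of 0 between adult fragments and rest of brain.

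The wide intervals of the embryonic comparison came with 1 array that stood apart. Embryonic fragments replicate 1 was the lowest of its group for 6 of the 6 members at 4 or above on every embryonic fragment array, whereas it was the lowest for 35.4% of 10772 genes measured that way. It lay below the mean of replicates 2 and 3 by 0.44 for Ttr, 0.96 for Aqp1, 1.13 for Clic6, 1.55 for Otx2, 1.95 for Kcnj13 and 2.79 for Folr1. The same array was the lowest for 14 of 15 other choroid plexus genes, 4 of 6 ependymal and cilia genes, 4 of 6 astrocyte genes, 4 of 5 neuronal genes, 7 of 9 genes of pericytes and smooth muscle, 4 of 8 meningeal genes and 0 of 9 endothelial markers. The median gap was 0.83 for the other choroid plexus genes, 0.89 for ependymal and cilia genes and 0.90 for astrocyte genes. It was 0.37 for neuronal genes, 0.30 for meningeal genes, 0.28 for the genes of pericytes and smooth muscle and -0.15 for endothelial markers. The lower values on this array were thus not particular to choroid plexus genes. Without it, the difference between embryonic fragments and rest of brain came to -0.19 for Folr1 (adjusted p = 0.516) and -0.22 for Kcnj13 (adjusted p = 0.557), while Otx2 stayed called at -2.74 (adjusted p = 1.67e-05). Between adult and embryonic fragments, 8 of the 9 members and 17 of the 20 other choroid plexus genes were still called higher without it. Of all 12009 tested genes, 3075 were higher and 3306 lower in that setting. The differences there came to 0.62 for Ttr, 1.69 for Folr1 (adjusted p = 0.000624), 3.85 for Kcnj13, 2.66 for Clic6, 1.66 for Otx2 and 1.38 for Aqp1. In rest of brain, replicate 3 was the lowest for 6 of 7 members, against 30.8% of 11214 genes, the exception being Ttr. The adult arrays showed no such leader, with 2, 3 and 3 of 8 members lowest on replicates 1, 2 and 3.

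A wider list of 24 genes of choroid plexus epithelium and its core was read in the same way. It had 23 members with a probe set, of which 20 were tested. In adult against embryonic fragments 17 of 20 were higher, 0 were lower and 3 were not called, with a median difference of 2.66 against -0.02 over all tested genes, of which 27.4% were higher. F5 and Trpv4 passed the filter through adult fragments alone and had to differ. Of the 15 genes at 4 or above on every array of both groups, 13 were higher. Slc4a10, a sodium bicarbonate transporter of the epithelium, was higher by 4.96 ± 0.75 (12.02 ± 0.36 in adult and 7.06 ± 1.76 in embryonic fragments, adjusted p = 0.000534). Cldn2, a claudin of leaky epithelia, was higher by 4.74 ± 0.47 (9.92 ± 0.16 in adult and 5.18 ± 1.02 in embryonic fragments, under 4 on 1 of 3 embryonic arrays, adjusted p = 4.55e-05). F5, coagulation factor V, was at background in both embryonic groups and at least 75.1-fold higher in adult fragments (10.23 ± 0.78, against 3.14 ± 0.02 in embryonic fragments). Slc12a2, the chloride cotransporter NKCC1, and Calml4 missed the threshold at -0.17 and 1.23 (adjusted p = 0.412 and 0.0635), and Cldn3 lay under 4 on every fragment array. Cldn3 passed the filter through rest of brain alone, so its lower calls against rest of brain followed from the filter.

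Against rest of brain, 13 of these 20 genes were higher in adult fragments, 2 were lower and 5 were not called (median 1.63, against -0.17 over all tested genes, of which 33.1% were higher and 42.9% lower). Of the 17 at 4 or above on every array of both groups, 11 were higher and 1 was lower. Steap1, a metalloreductase, and Col8a1, a short-chain collagen, were higher by 3.49 ± 0.30 and 3.23 ± 0.25. Slc29a4, a monoamine transporter that neurons make too, was lower by 1.47 log2 units (-1.47 ± 0.24, adjusted p = 0.000417). In embryonic fragments against rest of brain, 2 of 20 were higher, 9 were lower and 9 were not called, with a median of -0.94 against -0.10. Over all tested genes, 28.9% were higher and 37.2% lower there. Of the 15 measured on every array of both groups, 2 were higher and 7 lower. Slc29a4 (-2.61 ± 0.24), Slc4a10 (-2.14 ± 0.75) and Slc13a4 (-2.08 ± 0.24), a sulfate transporter, led the lower ones. The Slc4a10 difference rests in large part on embryonic fragments replicate 1. Slc4a10 read 5.04 there, 8.24 and 7.91 on replicates 2 and 3, and 8.63 to 9.62 in rest of brain. Car14, a carbonic anhydrase, and Slc12a2 were higher by 0.95 ± 0.21 and 0.94 ± 0.16. This count depended on single arrays, with 4 lower without rest of brain replicate 1 or 2 and 12 lower without embryonic fragments replicate 2. Of all 12009 tested genes, 4071, 4195 and 4090 were lower without these arrays in turn, against 4466 with all 9 arrays. With the replicate number as a block, 2 were higher and 5 lower, beside 3622 higher and 4711 lower of all tested genes.

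**Figure D3:**
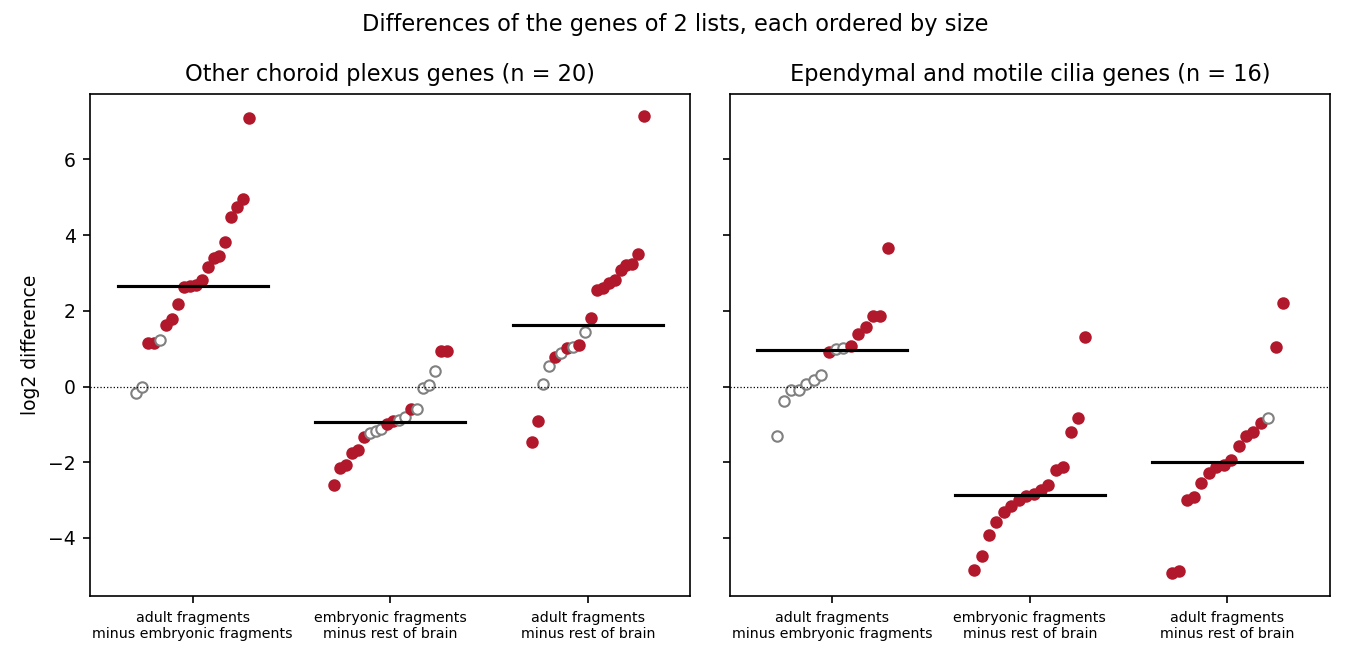
Log2 difference (vertical axis) of each tested gene of the wider choroid plexus list (20 genes) and of the ependymal and cilia list (16 genes) in the 3 comparisons, ordered by size within each. Filled points are called at an adjusted p under 0.05, and black lines are medians. Against rest of brain, adult fragments have a median of 1.63 for choroid plexus genes and of -2.0 for cilia genes.

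Genes of the ependyma and its cilia did not share the adult excess over rest of brain. Of 30 such genes, 28 had a probe set and 16 were tested, and the other 12 did not reach 4 on 3 arrays. In adult fragments 13 of 16 were lower than in rest of brain, 2 were higher and 1 was not called (median -2.0, against -0.17 over all tested genes, of which 42.9% were lower). Ccdc40 and Dnaic2 passed the filter through rest of brain alone and had to be lower. Of the 11 genes at 4 or above on every array of both groups, 8 were lower and 2 higher. Ccdc40, needed for the assembly of ciliary dynein arms, was at least 8.14-fold lower in adult fragments (2.09 ± 0.04, against 7.03 ± 0.21 in rest of brain). Fam183b was at least 11.9-fold lower (adjusted p = 9.38e-05), and Tekt1, a tektin of ciliary microtubules, fell by 3.01 (adjusted p = 9.12e-06, under 4 on 1 of 3 adult arrays). Rarres2, the adipokine chemerin, and Spag16, a central pair protein, were higher by 2.22 ± 0.17 and 1.05 ± 0.24. In embryonic fragments 15 of 16 were lower than in rest of brain and 1, Rarres2, was higher (1.30 ± 0.17), with a median of -2.86 against -0.10 over all tested genes, of which 37.2% were lower and 28.9% higher. Only 6 of the 16 reached 4 on every array of both groups, and 5 of these were lower and 1 higher. Rsph9, a radial spoke protein, had -4.47 ± 0.61 with 2 of 3 embryonic fragment arrays under 4, and Enkur, a protein of ciliary microtubules, -3.93 ± 0.50 with 1 of 3 under 4. Between the ages 7 of 16 were higher in adult fragments, 0 were lower and 9 were not called (median 0.96, against -0.02 over all tested genes, of which 27.4% were higher). Of the 6 at 4 or above on every array of both groups, 4 were higher. The called differences included Rsph9 at 3.65 ± 0.61 and Ccdc39, a ruler of dynein arm spacing, at 1.87 ± 0.26. Some of these genes also serve the primary or motile cilia of choroid plexus cells, and their split between the 2 tissues cannot be read from whole samples.

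Partners and relatives of the members moved in other patterns. Of 33 listed, 24 were tested, with 12 higher and 7 lower in adult than in embryonic fragments, 12 higher and 11 lower in embryonic fragments than in rest of brain, and 11 higher and 10 lower in adult fragments than in rest of brain. Over all tested genes, the shares higher and lower in these comparisons were 27.4% and 29.7%, 28.9% and 37.2%, and 33.1% and 42.9%. Clic5, a relative of Clic6 tied to the cell cortex, was higher by 4.52 ± 0.26 in adult than in embryonic fragments (adjusted p = 2.00e-06). It was at background in rest of brain and at least 11.0-fold higher in embryonic fragments (adjusted p = 6.16e-07), where Clic6 had -0.76. Folr2, the folate receptor of macrophages, read 2.64 to 2.66 in adult fragments, 5.71, 8.09 and 7.67 in embryonic fragments and 2.65 to 2.72 in rest of brain, so that it was at least 8.92-fold lower in adult than in embryonic fragments. Folr2 passed the filter through embryonic fragments alone. Slc4a4, the relative of Slc4a5 that astrocytes make, was higher in rest of brain than in either kind of fragments (-2.90 ± 0.40 for adult and -4.83 ± 0.40 for embryonic fragments). Otx1 lay at background in both kinds of fragments and at 6.21 to 6.35 in rest of brain, through which alone it passed the filter.

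Markers of other brain cells moved between the fragment groups as well, and their part in these results was not tested. The counts between these groups stand beside 27.4% of all tested genes higher and 29.7% lower in adult than in embryonic fragments. Of 7 tested astrocyte genes 5 were higher and 2 lower in adult than in embryonic fragments (median 2.37), with a mean log2 value over 8 measured genes of 8.74 to 9.34 in adult fragments, 6.33 to 7.54 in embryonic fragments and 10.39 to 10.93 in rest of brain. The log2 of their summed level, to which the bright Gja1 adds most, ran from 14.33 to 14.54 in adult fragments, 14.26 to 14.51 in embryonic fragments and 15.17 to 15.50 in rest of brain. Gfap lay under 4 on 2 of 3 adult fragment arrays, 3 of 3 embryonic fragment arrays and 2 of 3 rest of brain arrays. Of 6 tested myelin genes 4 were higher and 0 lower in adult than in embryonic fragments, with log2 sums of 13.76 to 14.05 in adult fragments, 11.84 to 11.96 in embryonic fragments and 12.59 to 13.29 in rest of brain, while Mag, Mog, Opalin and Gjb1 lay under 4 on all 9 arrays. Mobp, 1 of the higher myelin genes, passed the filter through adult fragments alone and had to differ. Among the 4 myelin genes at 4 or above on every array of both fragment groups, 2 were higher and 0 lower. Mal added most to the adult sum, at a mean of 13.5 in adult fragments, 10.42 in embryonic fragments and 3.60 in rest of brain. In adult fragments against rest of brain, Mbp had -0.45 (adjusted p = 0.386), Cnp -1.42 and Cldn11 -2.66, so the order of the sums was not that of these genes. Neuronal genes were lower in 9 of 9 cases in fragments of either age than in rest of brain, with log2 sums of 9.98 to 10.62 in adult fragments, 9.94 to 10.79 in embryonic fragments and 15.36 to 15.65 in rest of brain. Over all tested genes, 42.9% were lower in adult and 37.2% in embryonic fragments than in rest of brain. Gad2 passed the filter through rest of brain alone and had to be lower. Among neuronal genes at 4 or above on every array of both groups, 3 of 3 were lower in adult fragments and 5 of 5 in embryonic fragments. Of 10 genes of pericytes and smooth muscle 6 were higher and 1 lower in adult than in embryonic fragments (log2 sums 16.97 to 17.01 in adult and 15.95 to 16.28 in embryonic fragments). Cnn1 among them passed the filter through adult fragments alone and had to differ. Among the 9 at 4 or above on every array of both fragment groups, 5 were higher and 1 lower. Of 9 tested meningeal genes 2 were higher and 1 lower (12.77 to 13.0 in adult and 12.82 to 13.01 in embryonic fragments).

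**Figure D4:**
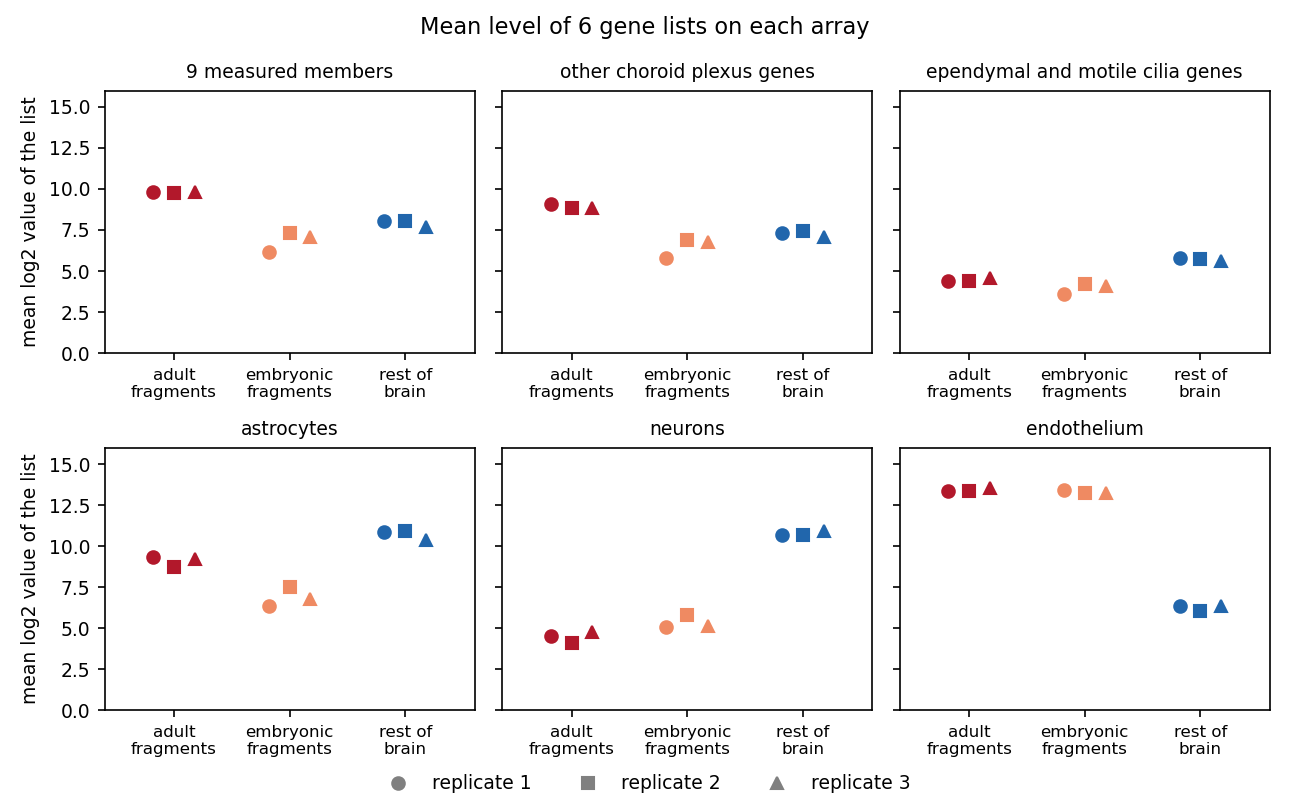
Mean log2 value (vertical axis) of 6 gene lists on each array of adult fragments, embryonic fragments and rest of brain, with symbols for the replicate number. The members run from 9.74 to 9.85 in adult fragments, from 6.15 to 7.29 in embryonic fragments and from 7.65 to 8.05 in rest of brain, while endothelial genes lie between 13.2 and 13.5 in both kinds of fragments and between 6.09 and 6.37 in rest of brain. The member mean includes Kl and Slc4a5, which passed the filter through adult fragments alone and widen the adult gap. It also includes Foxj1, which passed through rest of brain alone.

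The genes with the profile most like that of Ttr over the 9 arrays were Kcnj13 (Pearson's r = 0.99), Ecrg4 (0.99), Mettl7a1 (0.99), Htr2c (0.98) and Sostdc1 (0.98). Ecrg4, which encodes a secreted peptide precursor, read 13.65 to 13.96 in adult fragments, 9.03 to 11.67 in embryonic fragments and 10.85 to 11.45 in rest of brain. Htr2c, the serotonin receptor 2C of the epithelium, read 11.18 to 11.73 in adult fragments, 6.54 to 9.06 in embryonic fragments and 8.33 to 9.40 in rest of brain. Otx2 was followed by other genes, Slc22a17 (0.99), Fgfr2 (0.99), the astrocyte gene Mlc1 (0.99), the cilia gene Rsph1 (0.99) and Paip1 (0.98). The profile of Aqp1 was matched best by Aspa (0.97), Plekhb2 (0.97), Phyh (0.97), Serpinb1b (0.96) and Col9a3 (0.96). These coefficients describe 9 arrays that fall into 3 groups and share 1 normalization. Within groups, after the group means were taken off, Ttr went best with Gm6377 (0.99), Pifo (0.99), Rsph1 (0.98), Abca9 (0.98) and Mitf (0.98), all of which were lowest on embryonic fragments replicate 1 within their group.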

How the data were processed

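Per the submitters' processing notes the deposited values were made with GCRMA 2.6.0 in R 2.4.1. The authors deposited 1 log2 value per probe set and array; the log2 scale was read from the values. Per the labels' protocols, RNA came from a micro kit for embryonic and a mini kit for adult tissue. Scanner files were not analysed here, and the table had 0 unused columns and 0 identical arrays. Quantile steps hide changes in total RNA per cell.

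Of 45101 probe sets 34958 name 1 gene in the platform annotation, 932 several and 9211 none. Each of 18194 genes was represented by its brightest such probe set, and 12009 with at least 4 on at least 3 arrays were tested with limma 3.58.1 in R 4.3.3 (group as the factor, 2-sided, Benjamini-Hochberg adjustment over all 12009). "At least" folds set the brighter group's mean against 4. Arrays of the adult against embryonic comparison were also simulated over 12009 genes. Of these, 100 were shifted by 2 log2 units and 100 by 1, and 11809 had the same mean in every group, all with independent noise. Calls were made for 87.0% and 67.0% of the shifted genes and for 0.0677% of the others. In the data 57.1% of genes were called and 1 embryonic array stood apart, so these rates need not hold for the tests above.

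The deviations of same-numbered arrays from their group means correlated at 0.194 to 0.217 between embryonic fragments and rest of brain, but at -0.0923 to 0.214 for adult pairs. The embryonic numbers may thus mark pairs, but the main fit did not use them. The replicate block was run as an alternative only. Members and lists were chosen with earlier results of these data known. Named genes were the members, up to 3 called genes per list, comparison and direction with the largest differences, and the 5 most alike by Pearson's r. Named beside these, chosen after their values were seen, were the marker genes given as levels and the genes given as not called. Alternatives covered normalization, filter, background floor, probe sets, array weights, groups fitted alone, a replicate block and each array left out.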

Additional observations from a re-analysis of the deposited data

How the results depend on the processing

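The counts of members called stayed within 1.5 times of those reported in all 69 recomputed counts: 7 or 8 of the members tested were higher between adult and embryonic fragments in settings that tested at least 8 of them, and 6 of 7 without probe sets open to cross-hybridization, which removes Ttr and Otx2. Cyclic loess over the tested genes alone, the setting chosen after seeing the data along with every alternative for the wider lists, turned the differences of Kl and Slc4a5 between embryonic fragments and rest of brain to 1.27 and 0.95 with both groups at background, and that of Foxj1 between the fragment groups, also at background, to -0.11. With 1 array left out the Foxj1 difference ran from -0.029 to 0.079. Of 11 genes of the wider choroid plexus list called between embryonic fragments and rest of brain, 7 were called with the replicate block, 7 with no filter on dim probe sets and 6 without probe sets open to cross-hybridization, and 6 to 14 with 1 array left out (6 without rest of brain replicate 1 or 2). The replicate block changed no call of a member between embryonic fragments and rest of brain, and between adult fragments and rest of brain, where the numbers do not pair, it let Folr1 pass. Of the member differences under alternatives, 460 kept direction and call, 15 lost a call, 13 gained one and 4 turned. Background limits Kl, Slc4a5 and Foxj1 to bounds, and causes were not tested.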
